A study of Mus musculus with 2 samples.

Results

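Floor-type cells are named here for the lymphatic endothelial cells that form the floor of the subcapsular sinus of a lymph node, the inner wall that faces the cortex. They were chosen by transcript counts in each cell barcode. A barcode entered when it had at least 500 genes, at most 10% of its UMIs (unique molecular identifiers, which count captured transcripts) from mitochondrial genes, and 1 hashtag with at least 10 UMIs and at least 3 times those of the next. It was called lymphatic when Prox1, Pdpn, Mmrn1 and Lyve1 together had at least 2 UMIs and more than Flt1, Ly6c1 and Cd34 together. Members then needed at least 2 UMIs of Coch, Bmp2 and C1ql3 together, and more than of each of 4 other panels: ceiling (Ackr4, Gdf10, Parm1), Marco (Marco, Flrt3, C1ql2), Ptx3 (Mrc1, Reln, Ptx3) and Nts (Nts, Pkhd1l1, Fgl2). This gave 1138 floor-type cells among 3779 lymphatic cells, 9919 barcodes past the limits and 10612 barcodes in all. The same rule gave 1298 ceiling-type, 517 Marco-type, 295 Ptx3-type and 329 Nts-type cells, and left 202 lymphatic cells in no class.

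Lymph enters a node through the subcapsular sinus, whose outer wall, the ceiling, lies under the capsule and whose floor covers the B-cell follicles. Floor cells touch sinus macrophages, supply them with the growth factor Csf1, receive RANKL and lymphotoxin from the cortex, and are crossed by leukocytes and dendritic cells that leave the lymph. They are known for integrin αIIb (Itga2b), the adhesion molecule Madcam1 and the chemokine Ccl20. XBP1 acts in the unfolded protein response. Its active form is made when IRE1 splices its mRNA under load on the endoplasmic reticulum, and this factor drives genes for protein translocation, folding and secretion.

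The study sorted endothelial cells from lymph nodes of WT and Xbp1-KO mice, all treated with tamoxifen, after enzymatic digestion and depletion of CD45-bearing cells with beads; the labels describe the digestion for peripheral nodes only. Its title places the work in mucin production by high endothelial and goblet cells. Peripheral and mesenteric nodes of either genotype carried hashtags of their own and were run together as 4 pools in each of 2 droplet libraries, so that every group has n = 2 pools, 1 per library. The labels give neither the Cre line that tamoxifen would act on, nor the cells it acts in, nor the number, age or sex of the animals. They do not say that the libraries came from separate animals, but pools of the same group in the 2 libraries were opposite in markers of sex, given below, and so held different animals. The p-values measure the spread between these pools, which includes any effect of sex and of library. Levels below are given as UMIs of the summed member cells scaled to a common total (CPM), in the fixed order WT library 1, WT library 2, Xbp1-KO library 1, Xbp1-KO library 2.

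Library 1 held 887 floor-type cells and library 2 held 251. The smallest sum, WT mesenteric nodes of library 2, rests on 15 cells and 102597 UMIs, and the largest, Xbp1-KO peripheral nodes of library 1, on 397 cells and 2187118 UMIs. Members had a median of 5630 UMIs, other lymphatic cells 5332 and cells of the blood endothelial gate 2871. The libraries shared 3 barcodes, none of them a member. Xist, expressed from the inactive X chromosome, stood at 70.8, 1213, 1069.9 and 1.45 CPM in the peripheral and 20.5, 858, 877 and 6.38 CPM in the mesenteric pools, so that the pools rich in Xist were the Xbp1-KO pools of library 1 and the WT pools of library 2. The Y-linked Ddx3y ran the other way, at 130.2, 0, 0.914 and 144 and 79.6, 0, 0 and 134 CPM. These markers of sex ran with genotype in opposite directions in the 2 libraries, so that within 1 library genotype and sex cannot be told apart, which holds for every genotype value given below without a library.

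Genes of other cell types ranged from none to many UMIs in the floor-type cells. Ptprc, the CD45 gene, had 1 UMI in all members and the macrophage gene Adgre1 none, but Coro1a of the leukocyte list had a UMI in 13.7% of members against 3.67% of other lymphatic cells. Cd79b of B cells was in 5.27% against 1.21%, Lyz2 of macrophages in 2.99% against 0.984%, and Cd52 of leukocytes in 1.76% against 0.757%. Gp9 and Ppbp of platelets had none, while Pf4 had a UMI in 30.5% of members against 3.37% of other lymphatic cells. Flt1, Ly6c1 and Cd34 were each seen in 3.43% to 9.67% of members, against 75.7% to 94.8% of blood endothelial cells, but they helped choose both and check nothing. Outside the gate, Emcn, Sox17, Aqp1 and Gpihbp1 were in 3.6, 0.967, 8.44 and 4.04% of members. In blood endothelial cells they were in 74.4, 41.6, 67.7 and 68.5%. Plvap, which stood on the blood endothelial list, was in 97.4% of members and 91.2% of other lymphatic cells. Of the stromal list, Pdgfrb had 1 UMI, but Rgs5 was in 40.1% and Ccl19 in 22.6% of members. The B-cell list summed to 67.2 CPM in the Xbp1-KO peripheral pool of library 1 and to 4.78 to 19.5 CPM in the 7 others, and the immunoglobulin gene Igkc had 985 CPM there. Scrublet marked 2.03% of the members in library 1; in library 2 it marked 0.105% of all cells and so did not work.

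Values of the 3 panel genes chose the cells and are given as a description. Bmp2 (chromosome 2, 133552159 to 133562885, plus strand on GRCm38), a bone morphogenetic protein ligand, had a UMI in 98.9% of members, C1ql3 (chromosome 2, 13003457 to 13011806, minus strand), a secreted C1q-like protein, in 66.0%, and Coch (chromosome 12, 51593341 to 51605771, plus strand), an extracellular matrix protein best known from the inner ear, in 44.0% (0.925% of ceiling-type cells). All 3 were seen together in 30.9% of members, Bmp2 with C1ql3 in 34.3%, Bmp2 with Coch in 12.7% and Bmp2 alone in 21%. The panel sum had a median of 15 UMIs (2 to 119). Just inside the rule were 18 members with exactly 2 panel UMIs and 33 that led the next panel by 1 UMI. Just outside were 5 lymphatic cells that led with 1 UMI and 41 tied cells, while 443 with 2 or more panel UMIs had more of another panel, 339 of them of the Marco panel. Coch was at 609 CPM against 3.99 CPM in the cells of the 4 other lymphatic classes, C1ql3 at 352 CPM against 18 CPM, and Bmp2 at 2169.8 CPM against 222 CPM, with 781 CPM in Marco-type cells. These and the CPM comparisons with other lymphatic classes below leave out the 202 lymphatic cells of no class.

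The 25 genes outside panels and gates that stood highest in floor-type cells against the cells of the 4 other lymphatic classes were led by the chemokine Ccl20 (chromosome 1, 83116766 to 83119167, plus strand), which draws CCR6-bearing lymphocytes and dendritic cells, at 751 CPM against 3.34 CPM. Next came Glycam1, a mucin-like carrier of L-selectin ligands, at 8446 CPM against 480.4 CPM, with 20451 CPM in blood endothelial cells. Madcam1, the ligand of integrin α4β7, was at 626 CPM against 43.1 CPM, and Chst2, a sulfotransferase that makes L-selectin ligands, at 312 CPM against 28.2 CPM. These 4 belong to leukocyte traffic, and 2 of them, Glycam1 and Chst2, serve L-selectin ligands, which are best known from high endothelial venules. Fut7 and Chst4, which complete those ligands in high endothelial cells, had a UMI in 1.05% and 0.439% of members, against 0.606% and 0.303% of other lymphatic cells and 8.73% and 3.27% of the blood endothelial gate.

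The other leading genes include secreted enzymes, adhesion molecules and receptors. Mmp9, a gelatinase, was at 486 CPM against 19.5 CPM, and Il4i1, a secreted L-amino acid oxidase, at 549 CPM against 39 CPM. Sulf1, which trims heparan sulfate, stood at 121 CPM against 8.42 CPM, and the neutrophil chemokine Cxcl1 at 466 CPM against 52.1 CPM. Lamb3, a laminin chain of epithelial basement membranes, had 67.3 CPM against 0.871 CPM. The lysophosphatidic acid receptor Lpar1 was at 58.2 CPM against 1.52 CPM, and the desmosomal cadherin Dsg2 at 773 CPM against 81.4 CPM. Cd44, the hyaluronan receptor, had 77.9 CPM against 3.99 CPM. Rgs5, known from pericytes, had 309.9 CPM against 16.7 CPM, the prion protein gene Prnp 864 CPM against 95.2 CPM, and Bst1, an ectoenzyme of bone marrow stroma, 212 CPM against 17.4 CPM. Kcnj2, Insm1, Serpina12, Ppp1r1a, Nudt17, Gm10851, Fyb, Art2b, Scg5 and Col14a1 completed the 25. In 23 of the 25, Marco-type cells had the next highest level among the 4 other lymphatic classes.

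The 10 genes lowest in floor-type cells were Cd36, Edn1, S100a6, Igfbp5, S100a10, Prss23, Pdgfb, Cav1, Tinagl1 and Mgll. Cd36, a fatty acid and thrombospondin receptor, was at 44.8 CPM against 1083 CPM, and Edn1, the endothelin precursor, at 14.6 CPM against 294 CPM. The median log2 ratio was 3.24 over the 25 high genes and -4.33 over the 10 low ones, and 3.18 and -4.61 after each cell was thinned to 2000 UMIs. These ratios carry no test, because the same counts chose the cells. Among 9358 genes with at least 50 UMIs in members, 787 were higher in all 8 pools and 1290 lower.

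**Figure D1:**
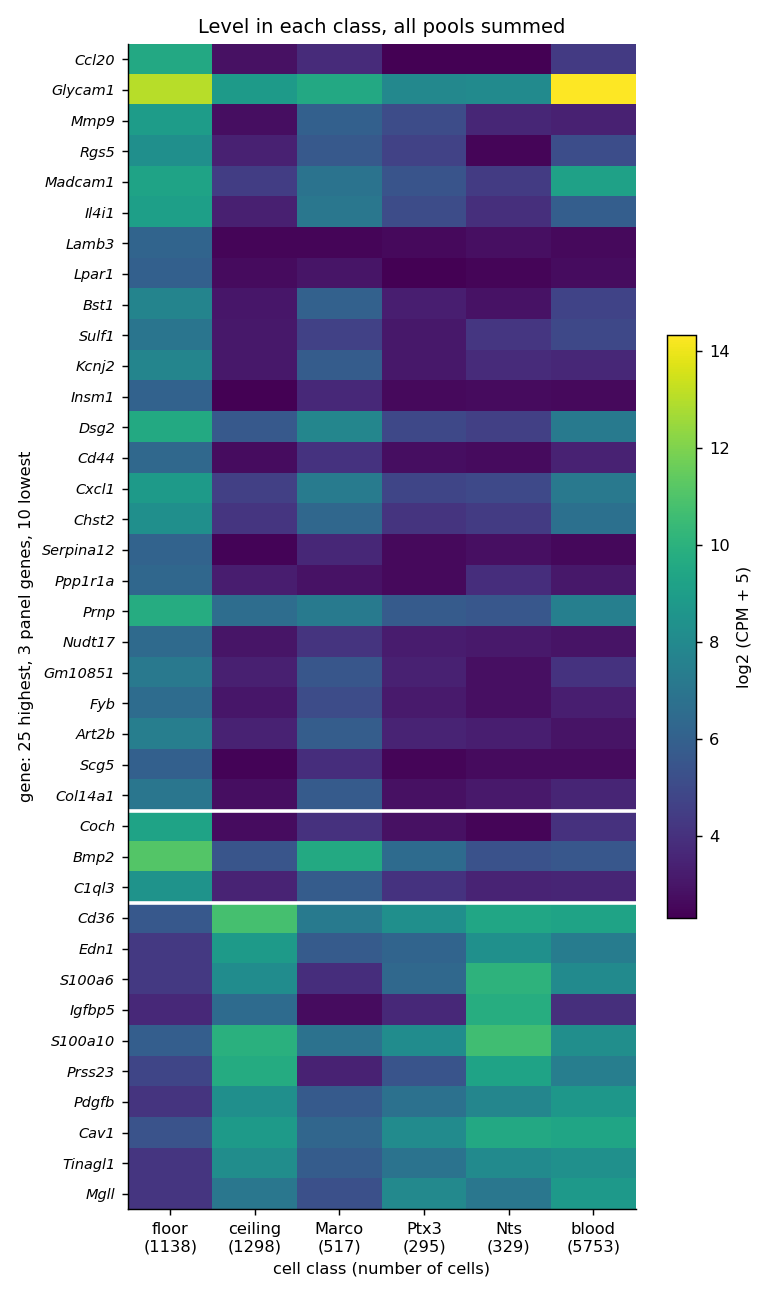
Heat map of log2 (CPM + 5) in each cell class, with all pools summed (columns, number of cells in brackets), for the 25 highest genes, the 3 panel genes and the 10 lowest genes of floor-type cells (rows, separated by white lines). Ccl20 is bright in the floor column only (751 CPM against 3.34 CPM in the cells of the other lymphatic classes). Glycam1 is brighter still in blood endothelial cells, and Cd36 is dark in floor-type cells.

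The lists of floor and lymphatic genes gave a mixed check of the label. Flt4, the VEGF-C receptor, was at 174 CPM against 399 CPM in the cells of the 4 other lymphatic classes, and Stab2, a hyaluronan scavenger, at 87.4 CPM against 659.8 CPM. Prox1, the master factor of lymphatic identity, and the hyaluronan receptor Lyve1 were at 751 CPM against 748 CPM and 848 CPM against 1414 CPM, but both helped choose the lymphatic cells and check nothing. Among named floor genes, Itga2b had 402 CPM in floor-type and 605 CPM in Marco-type cells, and Csf1 1164 and 1083 CPM. The RANK receptor Tnfrsf11a was not raised, at 60.8 CPM against 110.2 CPM. The adhesion molecule Vcam1 stood at 1196 CPM against 348 CPM, Icam1 at 297 CPM against 171 CPM, and lymphotoxin beta (Ltb) at 679 CPM against 294 CPM. Cxcl10, an interferon-induced chemokine, had 1022 CPM against 359 CPM, and the class II invariant chain Cd74 699 CPM against 124 CPM. Of the other bone morphogenetic proteins, Bmp4 was at 6.33 CPM against 107 CPM and Bmp6 at 0.737 CPM against 25.3 CPM, and the S1P exporter Spns2 had 57.7 CPM against 260.4 CPM.

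Among the members, some traffic genes went together and others did not. Across the 887 members of library 1 and the 251 of library 2, Pearson's r of depth-scaled log levels was 0.56 and 0.52 between Madcam1 and Glycam1, 0.46 and 0.38 between Ccl20 and Glycam1, and 0.41 and 0.34 between Coch and Glycam1. Coch and Bmp2 gave 0.1 in each library, Glycam1 and Itga2b -0.18 and -0.15, Glycam1 and Vcam1 0.04 and 0.01, and Madcam1 and Icam1 -0.02 and -0.14. The cells of a library share its free RNA, differ in depth and come from both node types and both genotypes. Glycam1, Madcam1, Ccl20 and Itga2b differed between node types, as given below. The r values were not split by node type, and they are a description without a test.

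Floor-type cells made up a similar part of the lymphatic cells of most pools. Their share was 30.6%, 20.8%, 30.2% and 30.1% of lymphatic cells in the peripheral pools and 31.5%, 23.1%, 28.0% and 38.5% in the mesenteric pools. The 2 WT pools of library 2 were lowest, with exact 95% intervals of 15.9% to 26.4% and 13.5% to 35.2%, and the Xbp1-KO mesenteric pool of library 2 was highest, at 32.0% to 45.2%; these intervals cover counting error only. Peripheral pools had a mean of 27.9% ± 4.75 (SD, n = 4) and mesenteric pools 30.3% ± 6.46 (SD, n = 4). The difference of -2.32 percentage points gave p = 0.543 in an exact two-sided permutation test, whose smallest possible p is 0.0286. Xbp1-KO pools had 31.7% ± 4.61 (SD, n = 4) and WT pools 26.5% ± 5.34 (SD, n = 4), a difference of 5.22 points with p = 0.286 in the same exact test. That difference was -1.91 points in library 1 and 12.3 points in library 2. As a share of all cells past the limits, floor-type cells were 12.8% of the peripheral and 6.63% of the mesenteric pools on average (p = 0.0286, exact permutation test, the smallest it can give), a denominator that also holds the blood endothelial cells and was chosen after seeing the data.

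**Figure D2:**
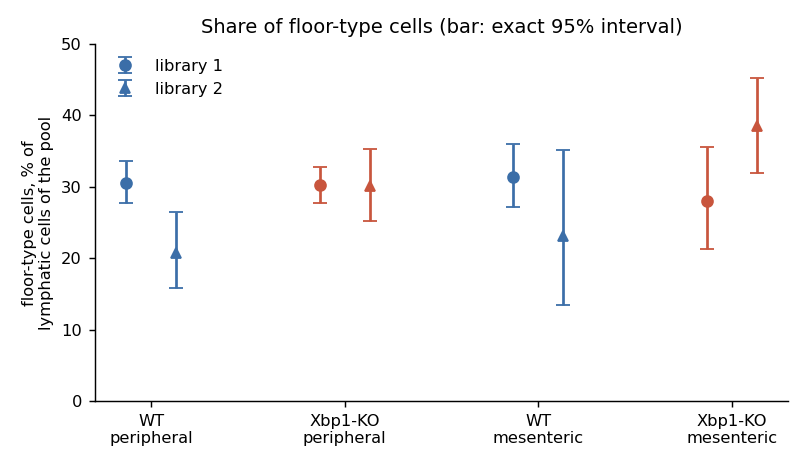
Share of floor-type cells among the lymphatic cells of each pool, in percent, with exact 95% intervals from counting; blue is WT, red is Xbp1-KO, circles are library 1 and triangles library 2. The 4 library 1 pools lie between 28.0% and 31.5%, and the library 2 pools spread from 20.8% to 38.5%.

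Node type gave more differences than genotype within floor-type cells. The comparison asks how floor cells of peripheral nodes, which drain skin and muscle, differ from those of mesenteric nodes, which drain the gut. Of 8365 genes tested by edgeR's quasi-likelihood test, 791 (9.46%) passed an adjusted p of 0.05, 355 (4.24%) higher in peripheral and 436 (5.21%) higher in mesenteric nodes. Of these, 712 differed the same way in all 4 pairs of pools from 1 library and genotype. With DESeq2 on the same 8365 genes, 284 passed, all of them among the 791, and the part that was higher in peripheral nodes was 26.8% of the calls instead of 44.9%; the median over all genes was 0.03 instead of 0.05 on the log2 scale. With DESeq2 on all 16451 genes with a UMI, without the filter on low counts, 292 passed, 26.7% of them higher in peripheral nodes. Without library 1, 182 passed. Of the list genes named in the next paragraphs, DESeq2 on the same genes did not call Eng, Smad1, Smad5, Tgfb1, Cxcl16, Birc3, Stab2, Lamc1, Hspa5, Manf, Herpud1, Sec61b, Hsp90b1, Fosb, Junb, Hsph1, Hspb1, Irf7, Tap1, Tapbp or St3gal4.

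Of the 12 genes with the largest excess in peripheral nodes that are named here, Postn had the highest level. Postn (chromosome 3, 54361109 to 54391037, plus strand), which encodes the matricellular protein periostin, had 1389, 1245, 1658 and 1286 CPM in the peripheral pools and 173, 244, 216 and 134 CPM in the mesenteric pools. All 4 peripheral pools lay above all 4 mesenteric pools, and the log2 difference was 2.83 ± 0.16 (SE), adjusted p = 3.24e-11. Ngfr, the low-affinity neurotrophin receptor, had 27.6, 41.6, 43.4 and 46.5 CPM in the peripheral pools and 0, 0, 8.31 and 1.59 CPM in the mesenteric pools, a log2 difference of 5.60 ± 0.68 (SE), adjusted p = 7.79e-06. Kcna6, a voltage-gated potassium channel, had 90 UMIs in the peripheral pools (17.9 CPM) and none in the mesenteric pools. Against the floor of 3 counts over the mesenteric pools (1.71 CPM) it was at least 10.4-fold higher. Scin, which severs actin filaments, had 50.8, 25.6, 60.8 and 66.9 CPM in the peripheral pools and 6.42, 0, 4.15 and 0 CPM in the mesenteric pools (4.16 ± 0.46, SE, on the log2 scale). Axin2, a feedback inhibitor and common target of Wnt signalling, had 20.5, 35.2, 17.4 and 27.6 CPM in the peripheral pools and 1.28, 0, 0 and 3.19 CPM in the mesenteric pools, and its call was lost without library 1 or without the WT mesenteric pool of library 1. Lypd1, Tspan11, Zg16, Bcan, Olfml2a, Pcdh15 and Zfhx4 completed the 12 largest, with log2 differences from 2.74 to 4.99. The calls of Lypd1, Tspan11, Zg16 and Bcan were lost in 1 of 10 runs with a pool or library left out, and Zfhx4 passed in 3 of 9. Some of these sizes moved by over 1.5 times when 1 pool or library was left out. Without the WT mesenteric pool of library 1 the log2 difference was 6.88 for Scin, 5.92 for Tspan11, 6.04 for Olfml2a and 4.35 for Zfhx4. Without library 1 the log2 difference was 7.68 for Scin. Without the Xbp1-KO mesenteric pool of library 2 the log2 difference was 5.63 for Axin2 and 5.63 for Zg16. Without the Xbp1-KO mesenteric pool of library 1 the log2 difference was 4.87 for Zfhx4. Without library 2 the log2 difference was 1.67 for Zfhx4 and 2.89 for Lypd1.

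On the mesenteric side stood the cytokine Tnf, at 18.9, 35.2, 22.4 and 52.3 CPM in the peripheral pools and 95, 78, 241 and 194 CPM in the mesenteric pools. The groups did not overlap, and the log2 difference was -2.52 ± 0.24 (SE), adjusted p = 1.82e-07. Within the mesenteric pools the Xbp1-KO values were higher than the WT values, with a log2 difference of 1.18 ± 0.30 (SE), adjusted p = 0.161, which did not pass. Fgf23, the phosphate-regulating hormone of bone, had 5.94, 0, 9.14 and 7.27 CPM in the peripheral pools and 43.7, 29.2, 41.5 and 87.7 CPM in the mesenteric pools (log2 difference -3.15, SE 0.34, adjusted p = 1.02e-06). Islr, a secreted protein with leucine-rich repeats, had 26.5, 9.6, 22.9 and 20.4 CPM in the peripheral pools and 113, 146, 91.4 and 97.2 CPM in the mesenteric pools. Nav3, a neuron navigator, had the largest difference of this direction at -4.19 ± 0.50 (SE), and its call was lost without library 1. Stra6, Basp1, Kcnj8, Ddr1, Has2, Pitpnm1, Gm12840 and the Marco panel gene C1ql2 (given without a test) completed the 12, with log2 differences from -2.71 to -2.07. With library as a term the calls of Pitpnm1 and Gm12840 were lost (adjusted p = 0.0577 and 0.0545), and Pitpnm1 passed in none of 9 runs with a pool or library left out. Of the 24 genes of both directions, Ngfr, Scin, Olfml2a, Postn, Pcdh15, Kcna6, Fgf23, Tnf and Islr passed in every run that left out 1 pool or library and gave a value. The other calls of this direction passed for Gm12840 in 3 of 10, Has2 in 4 of 10, Basp1 in 4 of 9, Ddr1 in 5 of 9, Stra6 in 8 of 10 and Kcnj8 in 9 of 10 such runs. Sizes moved by over 1.5 times for 5 of the 12. With the WT peripheral pool of library 1 left out the log2 difference came to -5.59 for Fgf23, -4.36 for Basp1 and -4.50 for Ddr1. With the Xbp1-KO peripheral pool of library 1 left out the log2 difference came to -4.31 for Ddr1 and -3.91 for Pitpnm1. With library 2 left out the log2 difference came to -1.08 for Gm12840.

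The traffic genes of the floor differed between nodes in both directions. Glycam1 had 7643, 4448, 7009 and 5607 CPM in the peripheral pools and 14475, 8801, 14822 and 10937 CPM in the mesenteric pools, and the log2 difference was -1.11 ± 0.15 (SE), adjusted p = 1.70e-05. Every mesenteric pool was above every peripheral pool, from 8801 CPM upwards. Madcam1, which guides gut-homing lymphocytes, had 562, 586, 541 and 474 CPM in the peripheral pools and 998, 1082, 818 and 689 CPM in the mesenteric pools (log2 difference -0.83, SE 0.13, adjusted p = 0.000135). Ccl20 was higher in mesenteric pools in 3 of 4 pairs, at 990.2, 912, 269 and 435 CPM in the peripheral pools and 1192, 643, 1317 and 1245 CPM in the mesenteric pools (log2 difference -1.06, SE 0.17, adjusted p = 0.000137). Itga2b ran the other way, at 442, 432, 463 and 451 CPM in the peripheral pools and 262, 156, 282 and 261 CPM in the mesenteric pools (log2 difference 0.72, SE 0.15, adjusted p = 0.00296). Of 15 tested genes of the leukocyte adhesion list, 3 were higher in peripheral nodes (Itga2b, Cd44 and Alcam) and 2 in mesenteric nodes (Madcam1 and Glycam1), where 4.24% and 5.21% of all genes passed in these directions, with a median of 0.34 on the log2 scale against 0.05 over all genes. Of 9 tested genes of the list for L-selectin ligands and mucins, Glycam1 and Madcam1, which also stand on the adhesion list, were higher in mesenteric nodes, and the sialyltransferase St3gal4 in peripheral nodes; the Cd44 call was lost in 1 of 10 runs and the St3gal4 call in every run with a pool or library left out and with a block of library by genotype (adjusted p = 0.0554). C1ql3, a panel gene given without a test, had 441, 435, 427 and 395 CPM in the peripheral pools and 143, 127, 141 and 116 CPM in the mesenteric pools, with no overlap, while Coch had 712, 413, 525 and 422 CPM in the peripheral pools and 759, 741, 831 and 614 CPM in the mesenteric pools and Bmp2 2225, 1866, 2176 and 1816 CPM in the peripheral pools and 2063, 2047, 2675 and 2485 CPM in the mesenteric pools.

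**Figure D3:**
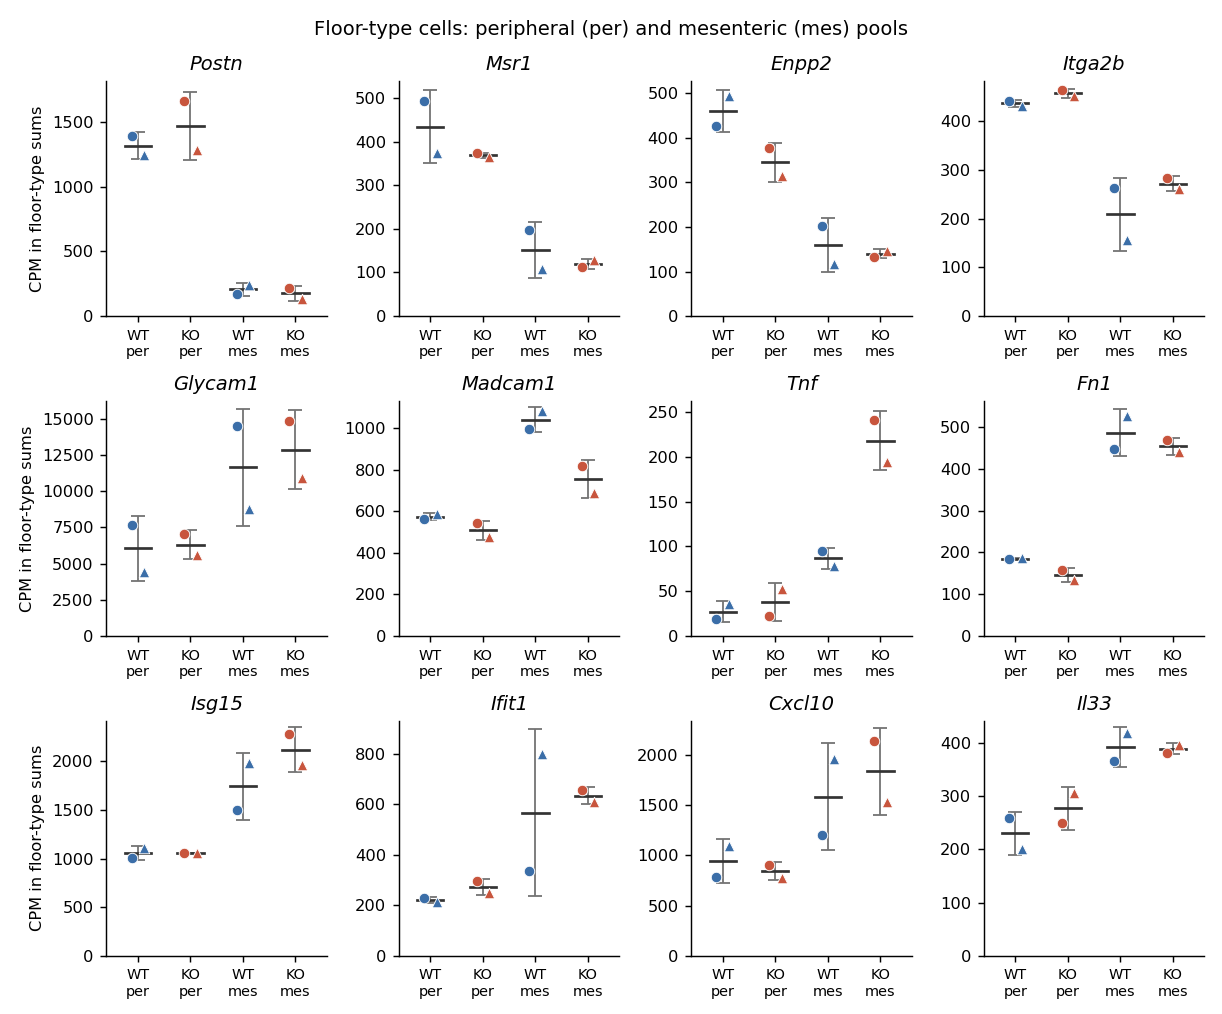
CPM of 12 genes in the floor-type cells of each pool, by genotype and node type; circles are library 1, triangles library 2, blue WT, red Xbp1-KO, and the bar and whiskers are the mean and SD of the n = 2 pools. Postn, Msr1, Enpp2 and Itga2b are higher in all 4 peripheral pools, and the other 8 genes are higher in all 4 mesenteric pools, for Postn with 1389, 1245, 1658 and 1286 against 173, 244, 216 and 134 CPM.

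Signals that floor cells send to neighbours were also divided. Enpp2, the lysophospholipase D autotaxin that makes lysophosphatidic acid, had 426, 493, 376 and 314 CPM in the peripheral pools and 203, 117, 133 and 147 CPM in the mesenteric pools (log2 difference 1.20, SE 0.16, adjusted p = 2.49e-05), while the phosphatase Plpp1, which degrades that lipid, was higher in mesenteric nodes at -0.89 ± 0.22 (SE). Among 7 tested niche cytokines, Kitl, the stem cell factor, had 81.6, 96, 91 and 81.4 CPM in the peripheral pools and 37.2, 0, 20.8 and 19.1 CPM in the mesenteric pools (log2 difference 1.66, SE 0.25, adjusted p = 0.00011), and Tgfb1 was higher in peripheral nodes at 0.52 ± 0.16 (SE), a call lost in every run with a pool or library left out. Il33, an alarmin of the interleukin-1 family, had 259, 202, 249 and 305 CPM in the peripheral pools and 366, 419, 382 and 397 CPM in the mesenteric pools (log2 difference -0.73, SE 0.15, adjusted p = 0.00227), and its call was lost without library 1. Ltb was also higher in mesenteric nodes (-0.51 ± 0.13, SE), whereas Csf1, at 1212, 1062, 1219 and 1237 CPM in the peripheral pools and 1019.5, 877, 1142 and 1033 CPM in the mesenteric pools, did not pass (adjusted p = 0.709). Of 12 tested chemokines and their scavengers, 5 were higher in mesenteric nodes, namely Ccl20, Cxcl9, Cxcl10, Cxcl16 and the atypical receptor Ackr2, and Cxcl12 in peripheral nodes. Cxcl10 had 788, 1094, 908 and 779 CPM in the peripheral pools and 1206, 1959, 2139 and 1532 CPM in the mesenteric pools (log2 difference -1.04, SE 0.15, adjusted p = 7.30e-05). Over all genes 4.24% passed as higher in peripheral and 5.21% as higher in mesenteric nodes. In the runs with a pool or library left out, calls passed for Cxcl12 in 5 of 9, Cxcl16 in 5 of 10, Ackr2 in 6 of 10, Plpp1 in 6 of 10, Ltb in 7 of 10 and Cxcl9 in 8 of 10, and Cxcl16 was lost also with DESeq2 and without a filter on low counts. The sizes of 4 calls moved by over 1.5 times in single runs. When the WT mesenteric pool of library 1 was left out, the log2 difference was 5.61 for Kitl, -0.57 for Cxcl9 and 5.17 for Cxcl12. When library 1 was left out, the log2 difference was -0.37 for Cxcl9 and -1.34 for Plpp1. When the WT peripheral pool of library 1 was left out, the log2 difference was 0.94 for Cxcl12.

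Of 18 tested interferon-induced genes, 9 were higher in mesenteric nodes and none in peripheral nodes: Isg15, Ifit1, Ifit2, Ifit3, Irf7, Bst2, Rsad2, Oasl2 and Ifitm3. Over all genes 5.21% and 4.24% passed in these directions. The call of Ifit3 was lost with a block of library by genotype (adjusted p = 0.0513), and with a pool or library left out calls passed for Ifit3 in 2 of 10, Irf7 in 3 of 10, Bst2 in 5 of 10, Ifit2 in 6 of 10 and Ifitm3 in 9 of 10 runs. The list's median was -0.35 on the log2 scale (-0.47 with DESeq2 fitted to all genes), against 0.05 over all genes, and with library as a term Ly6e passed as higher in peripheral nodes. Isg15, a ubiquitin-like modifier, had 1006, 1107, 1059 and 1058 CPM in the peripheral pools and 1497, 1988, 2285 and 1960.5 CPM in the mesenteric pools (log2 difference -0.97, SE 0.12, adjusted p = 8.21e-06). Ifit1, which binds foreign RNA, had 230.1, 211, 294 and 249 CPM in the peripheral pools and 334, 799, 656 and 609 CPM in the mesenteric pools (log2 difference -1.33, SE 0.19, adjusted p = 4.60e-05), and the antiviral enzyme Rsad2 had 90.8, 112, 64 and 34.9 CPM in the peripheral pools and 117, 380.1, 158 and 249 CPM in the mesenteric pools (log2 difference -1.55, SE 0.24, adjusted p = 0.000128). The summed list was 10143, 7953, 8664 and 8879 CPM in peripheral and 10517, 10907, 12803 and 10673 CPM in mesenteric floor-type cells. In ceiling-type cells of the same pools it was 8916, 7110.4, 7307 and 7384 and 8528, 8187, 8831 and 6789 CPM. Whether the sum's change differs between the classes was not tested. The log2 differences of Ifit3 and Rsad2 moved by over 1.5 times. With the WT mesenteric pool of library 1 left out the log2 difference came to -1.51 for Ifit3. With library 1 left out the log2 difference came to -1.38 for Ifit3 and -2.45 for Rsad2. With library 2 left out the log2 difference came to -0.88 for Rsad2.

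Scavenger receptors and matrix genes changed in both directions. Of 14 tested scavenger and uptake receptors, Stab2, Msr1, Cd36 and Fcgr2b were higher in peripheral nodes and the lectin Clec4g in mesenteric nodes; Marco, a panel gene given without a test, had 89.7, 12.8, 30.6 and 23.3 CPM in the peripheral pools and 126, 97.5, 166 and 115 CPM in the mesenteric pools. Msr1, the class A scavenger receptor, had 493, 374, 373 and 365 CPM in the peripheral pools and 198, 107, 112 and 128 CPM in the mesenteric pools (log2 difference 1.35, SE 0.17, adjusted p = 7.11e-06), and Fcgr2b, the inhibitory IgG receptor, 60.5, 32, 57.2 and 61.1 CPM in the peripheral pools and 14.1, 0, 24.9 and 3.19 CPM in the mesenteric pools (log2 difference 2.24, SE 0.36, adjusted p = 0.000187). Clec4g had 116, 57.6, 94.6 and 109 CPM in the peripheral pools and 269.6, 146, 328 and 338 CPM in the mesenteric pools (log2 difference -1.62, SE 0.18, adjusted p = 1.70e-06). Of 23 tested matrix genes, leaving aside Coch and Mmrn1, which helped choose the cells, Lamc1 and Eln were higher in peripheral nodes and Fn1 in mesenteric nodes. Fibronectin (Fn1) had 185, 186, 158 and 135 CPM in the peripheral pools and 447, 526, 469 and 439.9 CPM in the mesenteric pools (log2 difference -1.61, SE 0.14, adjusted p = 7.59e-08), with no overlap between the node types. In the bone morphogenetic protein list, whose ligand Bmp2 helped choose the cells, the signal transducers Smad1 (0.50 ± 0.14, SE) and Smad5 (0.69 ± 0.17, SE) were higher in peripheral and the co-receptor Eng (-0.53 ± 0.16, SE) in mesenteric nodes, of 15 tested. Of 17 tested antigen presentation genes, Cd74, Tap1 and Tapbp were higher in peripheral and the immunoproteasome genes Psmb8 and Psme2 in mesenteric nodes. Of 17 tested genes of lymphatic identity, Cldn5, a tight junction protein, was higher in peripheral nodes; the gate gene Mmrn1 had 167, 182, 203 and 141 CPM in the peripheral pools and 77, 19.5, 66.5 and 65.3 CPM in the mesenteric pools and carries no test. In the lymphotoxin, RANK and NF-κB list, Birc3 alone of 18 passed, higher in peripheral nodes. Over all genes 9.46% passed, and the shares of the lymphatic identity and the NF-κB lists are near or below that. With a pool or library left out, calls passed for Tap1 in 0 of 10, Tapbp in 1 of 10, Smad1 in 2 of 10, Eng in 3 of 10, Birc3 in 3 of 10, Cd36 in 4 of 10, Smad5 in 5 of 10, Stab2 in 6 of 10, Psmb8 in 6 of 10, Lamc1 in 7 of 10, Psme2 in 7 of 10 and Cd74 in 9 of 10 runs. The calls of Cd36 and Stab2 were also lost with the stricter member gate and without possible doublets. Of the calls in this group, 4 moved in size by over 1.5 times. Without the WT mesenteric pool of library 1 the log2 difference was 5.52 for Fcgr2b, 1.81 for Stab2, 4.83 for Cd36 and 1.35 for Eln. Without library 1 the log2 difference was 4.14 for Fcgr2b, 0.54 for Stab2 and 0.59 for Cd36. Without the Xbp1-KO peripheral pool of library 1 the log2 difference was 0.55 for Stab2 and 0.39 for Cd36. Without the WT peripheral pool of library 1 the log2 difference was 0.75 for Cd36.

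Among the stress and digestion lists, genes passed in both directions, where 4.24% of all genes passed as higher in peripheral and 5.21% as higher in mesenteric nodes. Of 14 immediate-early genes, Fosb, Junb, Zfp36 and Dusp1 were higher in peripheral nodes. Of 16 tested heat shock genes, Hsph1 and Hspa4l were higher in peripheral nodes and Hspa1a, Hspb1 and Dnaja1 in mesenteric nodes. Hsph1 kept that direction in 2 of 4 pairs only, the Xbp1-KO pools running the other way, and its call was lost with a block of library by genotype (adjusted p = 0.492). Of 42 tested XBP1 endoplasmic reticulum genes, Hspa5, Herpud1 and Hsp90b1 were higher in peripheral nodes, and Sdf2l1, Manf, Sec61b, Sec61g, Ssr4 and Sec11c in mesenteric nodes, and of 8 tested genes of the PERK and ATF4 branch Ppp1r15a was higher in mesenteric nodes. In the runs with a pool or library left out, calls on the XBP1 list passed for Hsp90b1 in 1 of 10, Manf in 2 of 10, Sec61b in 2 of 10, Hspa5 in 3 of 10, Herpud1 in 5 of 10, Sec61g in 5 of 10, Sdf2l1 in 8 of 10 and Sec11c in 9 of 10, and on the other lists for Hsph1 in 3 of 10, Junb in 4 of 10, Hspa4l in 5 of 10, Dnaja1 in 7 of 10, Fosb in 8 of 10, Ppp1r15a in 8 of 10 and Dusp1 in 9 of 10. The sizes of 11 of these calls moved by over 1.5 times. When the WT peripheral pool of library 1 was left out, the log2 difference was -1.81 for Sdf2l1. When library 1 was left out, the log2 difference was -0.63 for Sdf2l1, 0.22 for Herpud1, 0.25 for Hsp90b1, 0.13 for Junb, 0.22 for Hsph1 and 0.45 for Hspa4l. When the WT mesenteric pool of library 1 was left out, the log2 difference was -0.18 for Manf, -0.32 for Sec61g, 1.26 for Fosb and 0.41 for Hsph1. When the Xbp1-KO peripheral pool of library 1 was left out, the log2 difference was 0.26 for Junb. When the WT mesenteric pool of library 2 was left out, the log2 difference was -0.69 for Hspa1a and -0.67 for Hspb1. When library 2 was left out, the log2 difference was -0.72 for Hspa1a and 0.37 for Hsph1. When the WT peripheral pool of library 2 was left out, the log2 difference was 0.40 for Hsph1. Of the stromal list, Dcn and Rgs5 were higher in mesenteric floor-type cells, where the list summed to 393, 429, 639.8 and 661 CPM, against 373, 365, 339.7 and 270.4 CPM in peripheral cells. Their part in the results above was not tested.

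The second comparison asks what loss of Xbp1 changed in floor-type cells. Xbp1 itself (chromosome 11, 5520659 to 5525893, plus strand) had 141, 154, 49.4 and 50.9 CPM in the peripheral pools and 104, 48.7, 29.1 and 54.2 CPM in the mesenteric pools. In peripheral nodes both Xbp1-KO pools lay below both WT pools, 50.1 ± 1.06 CPM against 147 ± 8.93 CPM (SD, n = 2 each), a log2 difference of -1.56 ± 0.22 (SE), adjusted p = 0.00215. In mesenteric nodes the groups overlapped, since the WT pool of library 2, of 15 cells, had 48.7 CPM, and the log2 difference of -1.05 ± 0.32 (SE), adjusted p = 0.333 did not pass. Over both tissues it was -1.30 ± 0.19 (SE), adjusted p = 0.00192, lower in 3 of 4 pairs. The transcript remained detectable in every Xbp1-KO pool, and 3′ counts do not tell a shortened or uncut allele from an intact one. The call over both tissues was lost without library 1 or without the WT mesenteric pool of library 1, and the peripheral call without the WT or the Xbp1-KO peripheral pool of library 1. With DESeq2 on the same genes the adjusted p was 0.0455 over both tissues and 0.356 in peripheral nodes, and on all genes 0.141 and 1. When the WT mesenteric pool of library 1 was left out, the log2 difference was -0.80 for Xbp1.

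Few genes passed: 14 of 8365 (0.167%) over both tissues, 6 higher (0.0717%) and 8 lower (0.0956%) in Xbp1-KO cells. With library as a term, since the pools of a library were run together, 33 passed (0.395%), 13 of the 14 among them. Lower were Xbp1, Abca13, Ostc, Selenos, Rpl36al, Rpl10, Sec61b and Clu, and higher Ccn1, Hsph1, Btg2, Nfkbiz, Apold1 and Phlda1. Without library 1 the count was 4, none shared with the 14, and with DESeq2 it was 7 on the same genes, among the 14, and 1, Clu, on all genes. With the WT mesenteric pool of library 1 left out the log2 difference came to 2.28 for Ccn1. With library 1 left out the log2 difference came to 0.81 for Ccn1 and 0.36 for Hsph1. With library 2 left out the log2 difference came to 0.51 for Btg2.

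The genes that fell include parts of the secretory pathway. Sec61b, a subunit of the channel that lets new proteins into the endoplasmic reticulum, had 421, 320.0, 249 and 265 CPM in the peripheral pools and 543, 517, 278 and 290.1 CPM in the mesenteric pools, and every Xbp1-KO pool was below the WT pools of its tissue (log2 difference -0.75, SE 0.14, adjusted p = 0.0182). Selenos, a selenoprotein of the machinery that sends misfolded proteins back to the cytosol, had 188, 157, 115 and 116 CPM in the peripheral pools and 191, 136, 70.6 and 107 CPM in the mesenteric pools (log2 difference -0.79, SE 0.16, adjusted p = 0.0286). Ostc, a subunit of the oligosaccharyltransferase that adds N-glycans, had 84.8, 80.0, 62.6 and 36.3 CPM in the peripheral pools and 143, 87.7, 49.9 and 66.9 CPM in the mesenteric pools (log2 difference -0.89, SE 0.19, adjusted p = 0.0474), and it did not pass with library as a term (adjusted p = 0.0537, range over the alternatives 0.0018 to 1). Clu (chromosome 14, 65968483 to 65981547, plus strand), the secreted chaperone clusterin, was abundant, with 9428, 9812, 6690.5 and 6656 CPM in the peripheral pools and 12632, 14377, 8134 and 9546 CPM in the mesenteric pools. All 4 Xbp1-KO pools were below the WT pools of their tissue, and the log2 difference was -0.59 ± 0.09 (SE), adjusted p = 0.00192. Abca13, an ABC transporter, had 69.7, 41.6, 12.3 and 26.2 CPM in the peripheral pools and 36, 68.2, 12.5 and 12.8 CPM in the mesenteric pools (log2 difference -1.83, SE 0.31, adjusted p = 0.0114). Rpl36al and Rpl10, ribosomal proteins with processed copies in the genome among which reads can be divided, gave -0.78 ± 0.14 and -0.75 ± 0.14 (SE). Each of these calls was lost without library 1, and apart from Clu each was lost also without at least 1 single pool. Without the WT mesenteric pool of library 1 the log2 difference was -0.57 for Ostc. Without library 1 the log2 difference was -0.42 for Selenos.

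The whole XBP1 list leaned the same way by a small amount. Of 42 tested endoplasmic reticulum genes attributed to XBP1, 35 had a negative log2 difference, with a median of -0.28 against 0.02 over all genes, of which 47.1% were negative. The median was -0.15 without library 1 and -0.34 without library 2, and -0.32 with DESeq2 fitted to all genes. Sec61b and Ostc passed as lower and none as higher, where 0.0956% and 0.0717% of all genes passed. With library as a term, under which 0.395% of all genes passed, Sec61b, Sec61g and Spcs2, a signal peptidase subunit, passed as lower, and Hspa5, the chaperone BiP, as higher. Hspa5 had 1191, 1062, 1619.9 and 1202 CPM in the peripheral pools and 758, 526, 1076 and 1038 CPM in the mesenteric pools; its log2 difference was 0.48 ± 0.13 (SE), with an adjusted p of 0.243 and 0.0155 with library as a term (0.0155 to 1 over the alternatives). Spcs2 stood at 164, 106, 102 and 102 CPM in the peripheral pools and 182, 166, 87.2 and 97.2 CPM in the mesenteric pools, and Bloc1s1, an mRNA known to be cut by IRE1, at 43.2, 35.2, 21.5 and 30.5 CPM in the peripheral pools and 57.8, 78, 16.6 and 27.1 CPM in the mesenteric pools; both passed with library as a term only, like Fkbp2, Pramef8, Zfp503, Ier2, Rgs4 and Klf4 among the genes named by size. The list summed to 8638, 7703, 8044 and 7084 CPM in the peripheral and 8025, 6725, 6173 and 6506 CPM in the mesenteric pools, lower in Xbp1-KO than in WT cells in all 4 pairs. The same sum was also lower in Xbp1-KO cells in all 4 pairs of the blood endothelial gate, at 0.893 to 0.913 times WT, and of Marco-type cells, at 0.858 to 0.988 times; in ceiling-type cells it was 0.956 and 0.92 times WT in library 1 and 1.06 times in both tissues of library 2. In floor-type cells the range was 0.769 to 0.967 times.

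The 150 bases before the start of Selenos, Hspa5, Sec61b and Ccl20 are printed to show promoters with and without the letters that XBP1 and its partner factors are known to bind. They come from RefSeq on GRCm38.p6, 5′ to 3′, and capitals mark a CCACG core or an ER stress response element, CCAAT, 9 bases and CCACG.
Selenos, chr7:66079499-66079648, plus strand: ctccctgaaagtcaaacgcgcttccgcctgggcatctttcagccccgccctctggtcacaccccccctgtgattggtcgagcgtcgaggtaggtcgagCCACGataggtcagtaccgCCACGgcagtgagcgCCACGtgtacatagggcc
Hspa5, chr2:34771940-34772089, plus strand: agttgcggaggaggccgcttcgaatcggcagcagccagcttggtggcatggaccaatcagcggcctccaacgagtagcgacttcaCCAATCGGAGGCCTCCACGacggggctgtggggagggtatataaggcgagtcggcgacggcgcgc
Sec61b, chr4:47474511-47474660, plus strand: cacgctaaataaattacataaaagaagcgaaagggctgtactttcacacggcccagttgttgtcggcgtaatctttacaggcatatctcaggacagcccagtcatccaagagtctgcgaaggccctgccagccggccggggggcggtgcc
Ccl20, chr1:83116616-83116765, plus strand: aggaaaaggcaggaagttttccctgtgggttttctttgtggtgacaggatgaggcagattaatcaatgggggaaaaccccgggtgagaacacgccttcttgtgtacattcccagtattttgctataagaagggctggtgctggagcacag
Selenos, which fell, has 3 CCACG cores in this window, Hspa5 has 1 complete element, and Sec61b and Ccl20 have neither. In the 250 bases before the start, on both strands, CCACG was found in 28.3% of 32851 promoters and in 27 of 40 promoters of the XBP1 list (67.5%), where 35 of 43 genes were matched by symbol. The ER stress response element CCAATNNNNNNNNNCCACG, which contains the core, was in 0.113% of all promoters and 9 of the 40. TGACGTGG, whose reverse complement contains the core, was in 0.563% of all promoters and 3 of the 40. Of the 11 promoters matched for 9 of the 11 genes named as lower over both tissues, 4 had the core (Selenos, Spcs2, Fkbp2 and Rpl36al) and none the longer motifs. Of the 8 promoters matched for 7 of the 9 genes named as higher, 4 had the core (Hspa5, Hsph1, Klf4 and Rgs4) and 1 the ER stress response element. Clu and Ostc had no entry. A match describes letters and not binding.

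Ccl20 fell in one node type. It had 990.2, 912, 269 and 435 CPM in the peripheral pools, where both Xbp1-KO pools were below both WT pools, and 1192, 643, 1317 and 1245 CPM in the mesenteric pools, where both Xbp1-KO pools were above both WT pools. The log2 difference was -1.47 ± 0.23 (SE), adjusted p = 0.00583 in peripheral and 0.40 ± 0.23 (SE), adjusted p = 0.788 in mesenteric nodes, and the difference between them, -1.87 ± 0.33 (SE), adjusted p = 0.0234, passed as 1 of 4 genes (0.0478% of those tested). In peripheral nodes Ccl20 was 1 of 3 genes to pass (0.0359%), with Xbp1 and Abca13. The peripheral log2 difference of Abca13 moved from -1.96 to -1.25 without the Xbp1-KO peripheral pool of library 1, and DESeq2 did not call it. A UMI of Ccl20 was seen in 34.2, 25.5, 23.4 and 30.0% of peripheral and 50.7, 33.3, 54.3 and 43.5% of mesenteric members, against 0% to 2.37% of ceiling-type cells of the same pools (medians of 4560.0 to 7628 UMIs, and 4766 to 6993 in the members). With each cell thinned to 2000 UMIs the shares were 29.4, 19.6, 16.2 and 19.2% and 43.5, 33.3, 44.4 and 29.4%. In library 2 the peripheral shares did not follow the CPM. The peripheral call was lost without either peripheral pool of library 1. The difference between the tissues was lost without either WT peripheral pool; with DESeq2 its adjusted p was 0.0588 on all genes and 0.031 on the filtered genes. Both were lost without possible doublets and with sums thinned to the smallest.

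**Figure D4:**
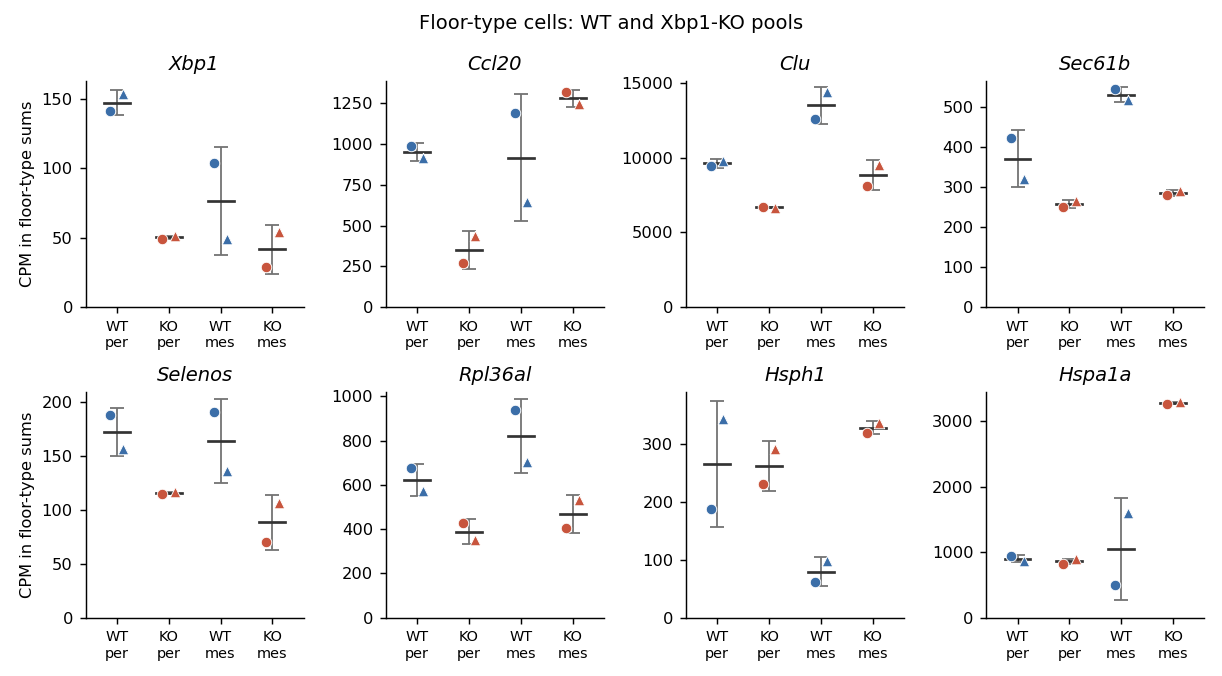
CPM of 8 genes in the floor-type cells of each pool; circles are library 1, triangles library 2, blue WT, red Xbp1-KO, and the bar and whiskers are the mean and SD of the n = 2 pools. Clu and Sec61b are lower in every Xbp1-KO pool than in the WT pools of its tissue, Ccl20 is lower in the peripheral pools only (990.2, 912, 269 and 435 CPM), and Hsph1 and Hspa1a are high in the Xbp1-KO mesenteric pools.

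In mesenteric nodes 18 genes passed (0.215%), 17 higher (0.203%) and 1, Clu, lower (0.012%) in Xbp1-KO cells; with library as a term 46 passed (0.55%). Of the 17 higher genes, 10 stand on the heat shock, immediate-early or PERK and ATF4 lists, and the others were Phlda1, Ccn1, Apold1, Pramef8, Nfkbiz, Rgs4 and Actg1. Of 16 tested heat shock genes 5 rose: Hspa1a, Hsph1, Hsp90aa1, Dnajb1 and Bag3, and the list's median was 0.78 in mesenteric and -0.09 in peripheral nodes, against 0.03 and 0.00 over all genes. Hsph1, a nucleotide exchange factor for HSP70, had 61.6, 97.5, 319.9 and 336 CPM in the mesenteric pools (log2 difference 2.23, SE 0.31, adjusted p = 0.0016) and 189, 342, 231 and 292 CPM in the peripheral pools. Hspa1a, an inducible HSP70 whose near-identical copy Hspa1b can take some of its reads, had 505, 1598, 3265 and 3295 CPM in the mesenteric pools (log2 difference 1.73, SE 0.29, adjusted p = 0.0036). Bag3, the co-chaperone of HSP70, had 61.6, 175, 307 and 387 CPM (log2 difference 2.04, SE 0.32, adjusted p = 0.00273). Of 14 immediate-early genes, Jun, Egr1, Ier2 and Btg2 rose, with a median of 0.68 in mesenteric and -0.08 in peripheral nodes. Phlda1, a pleckstrin-homology protein induced by growth factors, had 30.8, 58.5, 241 and 171 CPM (log2 difference 2.47, SE 0.36, adjusted p = 0.00187), and Ccn1, a matricellular target of YAP, 203, 39, 914 and 483 CPM (log2 difference 2.10, SE 0.34, adjusted p = 0.0036). Apold1 and Pramef8 rose by 1.98 ± 0.33 and 1.99 ± 0.41 (SE), and of the PERK and ATF4 list Ppp1r15a rose by 0.80 ± 0.16 (SE). With DESeq2 on the same genes 17 passed, and the calls of Ccn1, Hspa1a, Hsp90aa1 and Pramef8 were lost. The genotype effect differed between the tissues for Phlda1 (log2 difference -2.72, SE 0.44, adjusted p = 0.017), Bag3 and Hsph1, beside Ccl20. With DESeq2 on the same genes the Bag3 difference did not pass (adjusted p = 0.284), and on all genes none of these differences passed.

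The summed heat shock list was also higher in Xbp1-KO than in WT mesenteric pools in the other cell classes, by 1.01 to 2.08 times within a library. Heat shock genes summed to 7751, 16794, 19384 and 21879 CPM in the mesenteric floor-type pools, to 9425, 10177, 16230.0 and 18115 CPM in ceiling-type cells, to 8753, 8781, 12288 and 18265 CPM in Marco-type cells and to 12244, 15209, 12393 and 28183 CPM in cells of the blood endothelial gate. In ceiling-type cells the Xbp1-KO sum was 1.72 times the WT sum in library 1 and 1.78 times in library 2, against 2.5 and 1.3 times in floor-type cells. The immediate-early list, a sign of digestion, summed to 1.68 and 1.47 times the WT level in Xbp1-KO mesenteric floor-type cells of libraries 1 and 2, to 1.37 and 1.98 times in ceiling-type, to 1.09 and 2.18 times in Marco-type cells and to 0.993 and 2.25 times in the blood endothelial gate. The part of either list's movement in the other results was not tested. The genotype effect on Hsph1 over both tissues was 0.33 ± 0.19 (SE, adjusted p = 1) larger on the log2 scale in floor-type than in ceiling-type cells, which does not show that the effects are alike. The WT mesenteric pool of library 1 was the lowest in heat shock genes among the floor-type sums, and without it 5 genes passed in mesenteric nodes, of which 2, Ccn1 and Hspa1a, are among the 18; the calls of all the others of the 18 were lost. With the WT mesenteric pool of library 1 left out the log2 difference came to 4.16 for Ccn1, 1.04 for Bag3, 1.07 for Hspa1a and 0.87 for Dnajb1. With the WT mesenteric pool of library 2 left out the log2 difference came to 2.66 for Hspa1a. With the Xbp1-KO mesenteric pool of library 2 left out the log2 difference came to 0.65 for Ier2. For the difference between tissues, 4 genes passed without the WT mesenteric pool of library 1, 1 of them among the 4 named.

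**Figure D5:**
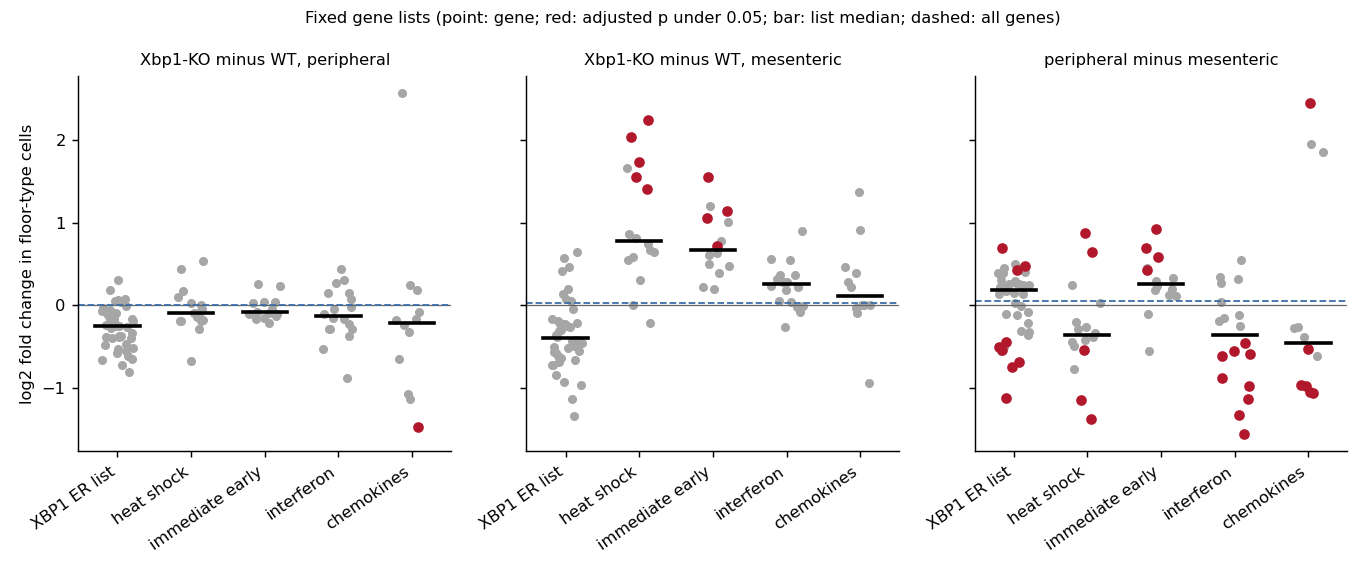
Log2 fold change of each tested gene of 5 lists in floor-type cells for Xbp1-KO minus WT in peripheral nodes, the same in mesenteric nodes, and peripheral minus mesenteric; red points passed an adjusted p of 0.05, black bars are list medians and the dashed line is the median of all genes. The XBP1 list has its median below 0 in both genotype panels, the heat shock list has 5 red points in the mesenteric genotype panel and none in the peripheral one, and 9 interferon-induced genes are red below 0 in the tissue panel.

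Whether these effects belong to floor-type cells was tested against ceiling-type and Marco-type cells of the same pools. The tissue effect differed from that of ceiling-type cells for 128 of 7574 genes (1.69%). Postn rose in peripheral floor-type cells but in ceiling-type cells had 59, 54.5, 65.2 and 16.4 CPM in peripheral and 15.6, 38.6, 393 and 80.3 CPM in mesenteric pools, highest in the Xbp1-KO pool of library 1, of 38 cells. The difference of the effects was 3.70 ± 0.46 (SE, adjusted p = 1.41e-05). Against Marco-type cells it was -0.02 ± 0.24 (SE, adjusted p = 0.993). Madcam1 and Glycam1 gave -2.37 ± 0.63 and -2.14 ± 0.54 (SE, adjusted p = 0.0485 and 0.0351) against ceiling-type cells, and that of Madcam1 was -0.06 without library 1. Madcam1 had 6 and 1 UMIs in the mesenteric ceiling-type sums of library 1 and at most 3 in any of library 2. No difference is read from it. Glycam1 in ceiling-type cells was at 532, 43.1, 883 and 45.6 CPM in the peripheral pools. In the mesenteric pools it was at 183, 45.1, 222 and 54.4 CPM, lower than in the peripheral pools in library 1 only. Against Marco-type cells the differences of Madcam1 and Glycam1 were 0.73 ± 0.27 and 0.58 ± 0.26 (SE, adjusted p = 0.206 and 0.312), and neither passed. Glycam1 in Marco-type cells was at 568, 134, 475 and 78 CPM in the peripheral and 887, 562, 1286 and 1728 CPM in the mesenteric pools, higher in mesenteric nodes in all 4 pairs. Ubd, an interferon- and TNF-induced ubiquitin-like protein, also differed (-2.85 ± 0.41, SE). Cryab, a small heat shock protein, gave 3.48 ± 0.53 (SE). It did not pass the filter on low counts in floor-type cells and entered through ceiling-type cells, so no difference is read from it. Ccl19 (7.41 ± 0.87, SE), whose ceiling-type level was 1.56, 0, 5.04 and 1280.0 CPM in the mesenteric pools, rested on the Xbp1-KO pool of library 2 and was 0.39 without that library, and that of Lpar1 turned from 4.18 to -1.43. Lpar1 had 1 and 9 UMIs in 2 ceiling-type sums and none in the others, and Ccl19 494 UMIs in 1 sum and at most 4 in the others, so no difference between the classes is read from either.

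Against Marco-type cells, 64 of 6140 genes (1.04%) differed in their tissue effect. Ifi27l2a, an interferon-induced gene, was -2.13 ± 0.26 (SE, adjusted p = 3.14e-06), with a tissue effect of -1.97 ± 0.20 (SE) in floor-type cells, and it passed without either library. Fcgr2b, higher in peripheral floor-type cells, gave 2.80 ± 0.45 (SE, adjusted p = 0.000285), and was 4.76 without library 1 and 1.69 without library 2. In library 2 its WT peripheral and mesenteric Marco-type sums held 2 and 4 UMIs, from 17 and 7 cells. The Xbp1-KO sums held 13 and 49 UMIs. The monocarboxylate transporters Slc16a1 and Slc16a12 gave 1.67 ± 0.23 and 1.85 ± 0.43 (SE), of which the first was lost without library 1 (adjusted p = 0.354) and the second without library 2 (adjusted p = 0.214, difference 1.25), while it was 3.23 without library 1. The matrix proteoglycan Dcn gave -3.57 ± 0.43 (SE). It had no value without library 1, and its Marco-type sums of library 2 held 0 to 10 UMIs. Few genotype effects passed a test of their difference between the classes. Against ceiling-type cells 4 of 7574 genes passed (0.0528%): Clu (-0.71 ± 0.14, SE, adjusted p = 0.0276), Cxcl1, Ccl19 and Igfbp5, of which none passed without library 2, and the Ccl19 value turned from -6.08 to 0.49. Against Marco-type cells none of 6140 did (0.0%) in edgeR, although 246 had an unadjusted p under 0.05, and without a filter on low counts 8 passed. For Clu the difference from Marco-type cells was -0.10 ± 0.13 (SE). Clu there was at 5073, 3550, 3273 and 2987 CPM in the peripheral and 8650, 8706, 6324 and 5210 CPM in the mesenteric pools, lower in Xbp1-KO in every pair. Igfbp5 did not pass the filter on low counts in floor-type cells and entered through ceiling-type cells, so no difference is read from it. For Xbp1 the difference was -0.43 ± 0.22 (SE) from ceiling-type and -0.11 ± 0.26 (SE) from Marco-type cells, with adjusted p = 1 and 1. Ccl20 had at most 11 UMIs in any ceiling-type or Marco-type sum. It entered the class comparisons through floor-type cells, and no difference of its effects is given. In the peripheral Marco-type sums it was at 13.1, 41.9, 2.76 and 15.6 CPM, lower in Xbp1-KO in both libraries.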

How the data were processed

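Single-cell RNA was counted in 2 libraries of sorted mouse lymph node endothelial cells, each with 4 hashtagged pools. The deposited values are raw UMI counts per gene and cell, and per the file headers Cell Ranger 6.0.1 made them; the submitters' processing notes name Cell Ranger 6.1 and mm10. The labels name both a version 2 kit and version 3 chemistry. Whether intronic reads were counted is not given in the sources used here. Of 32285 gene identifiers, 32158 (99.6%) matched GENCODE M21 (GRCm38), the source of coordinates.

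Members and gene lists were chosen with earlier results of these data known. Member counts were summed per library and pool (8 sums, 102597 to 2187118 UMIs) and tested with edgeR 4.0.16 (TMM, filterByExpr, quasi-likelihood, no block, Benjamini-Hochberg over 8365 genes). Effects are log2 fold changes with SE. The classes were compared with pool as a term. Shares were tested by exact permutation (scipy 1.17.1). Thinned values used 2000 UMIs per cell.

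Named genes were the panel genes, the 25 highest and 10 lowest of the profile (log2 of CPM plus 5, at least 50 UMIs, all 8 pools), the 12 largest tissue and 10 largest genotype changes per direction that passed and kept their direction in every pair, list members that passed, and up to 5 class differences per direction. Nfkbiz, Apold1 and Phlda1 over both tissues, Tnf in mesenteric nodes, Actg1, Nfkbiz and Rgs4 in mesenteric nodes, Igkc, Fut7 and Chst4 were named after their values were seen.

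Alternatives were library as a term (pools of a library were run together, per the labels), DESeq2 1.42.0 (on all genes and on the filtered ones), no filter, a stricter hashtag call or member gate, removal of possible doublets, thinned sums, and leaving out each pool or library. With a library left out, floor-type sums were fitted with genotype and tissue as additive terms on 4 pools. That model is unlike the main fit of 4 groups, so its counts and lost calls also reflect the change of model. On simulated data from these sums, the genotype step recovered 68% of 2-fold and 92% of 4-fold changes and the tissue step 70% and 96%, with 12 and 13 false calls.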

Additional observations from a re-analysis of the deposited data

Results flagged for a closer look

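Among 32 groups of 4 pools, 3 held a pool far from the others; chance alone flags about 1 in 20 groups. The share of floor-type cells among lymphatic cells was 20.8% in the WT peripheral pool of library 2, apart from the other 3 peripheral pools. Itga2b had 156 CPM in the WT mesenteric pool of library 2, below the other mesenteric pools, and that sum rests on 15 cells. Csf1 had one peripheral pool apart, at 1062 CPM.

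The genotype effect (Xbp1-KO minus WT) differed between peripheral and mesenteric floor-type cells, by the test of the difference itself, for 4 genes on the log2 scale. It was -2.72 for Phlda1, -2.21 for Bag3, -2.20 for Hsph1 and -1.87 for Ccl20. Without the WT mesenteric pool of library 1 it was -1.22 for Bag3, which did not pass. Bag3 and Hsph1 stand on the heat shock list, whose sum was also higher in the Xbp1-KO mesenteric pools of other cell classes, and Ccl20 passed in peripheral nodes and not in mesenteric nodes.

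The genes named here passed a test of the difference in tissue effect (peripheral minus mesenteric) between floor-type and ceiling-type cells, given on the log2 scale. The fitted tissue effect was lower in floor-type cells by a difference of -2.85 for Ubd, -2.48 for Fam181b, -2.37 for Madcam1, -2.25 for Cog1, -2.22 for Dcn, -2.14 for Glycam1 and -0.73 for Clu. It was higher by 3.48 for Cryab, 3.70 for Postn, 4.18 for Lpar1, 5.82 for Ccl21a and 7.41 for Ccl19. Cryab did not pass the filter on low counts in floor-type cells and entered through ceiling-type cells. No difference between the classes is read from Cryab, Madcam1, Lpar1 or Ccl19. The values of Ccl19 and Lpar1 rest on library 2 and were 0.39 and -1.43 without it, Lpar1 on 9 UMIs in 1 ceiling-type sum, and Ccl21a was 3.73. Without library 2 the calls of Fam181b, Cog1, Dcn, Lpar1 and Ccl19 were lost, and without library 1 those of Madcam1, Dcn and Lpar1. The effects of Ubd, Cog1, Lpar1, Ccl21a and Ccl19 in floor-type cells alone did not pass. Cog1 and Ccl21a had no value without library 1. The genotype effect differed from that of ceiling-type cells by -6.08 for Ccl19, -4.66 for Igfbp5, -1.95 for Cxcl1 and -0.71 for Clu; without library 2 none of these 4 passed, and the Ccl19 value was 0.49. Without library 1 it was -9.23 for Ccl19 and -3.42 for Cxcl1, and Igfbp5 had no value. Igfbp5 did not pass the filter on low counts in floor-type cells, and Ccl19 had 494 UMIs in 1 ceiling-type sum. No difference between the classes is read from either. For Clu the difference from Marco-type cells was -0.10 ± 0.13 (SE).

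Against Marco-type cells the difference of the tissue effect was -3.57 for Dcn, -2.23 for Adm, -2.13 for Ifi27l2a, -1.99 for Ifi204 and -1.78 for Rcsd1. In the other direction it was 1.67 for Slc16a1, 1.85 for Slc16a12, 1.89 for Pcdh15, 1.90 for Cyp51 and 2.80 for Fcgr2b. Dcn, Adm, Ifi204, Rcsd1 and Cyp51 had no value without library 1. Without library 1 Pcdh15 was 0.88 and did not pass, and without library 2 it was 2.70. Slc16a1 also did not pass without library 1, nor Slc16a12, Cyp51 and Ifi204 without library 2, and the effects of Rcsd1 and Cyp51 in floor-type cells alone did not pass.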

How the results depend on the processing

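With a replicate block for library, 33 genes passed for genotype over both tissues (14 without it), 7 in peripheral (3), 46 in mesenteric nodes (18), 17 for the difference between tissues (4) and 1016 for tissue (791), and 926 for tissue with a block of library by genotype. Same-numbered pools share a droplet run. DESeq2 called 1, 1, 21, 0 and 292 on all genes and 7, 1, 17, 3 and 284 on the genes past the filter (chosen after seeing the data), no filter 41, 15, 50, 20 and 825, and thinned sums 0, 0, 5, 0 and 201 in the same order; thinning leaves fewer UMIs and fewer genes. The stricter member gate gave 5 in peripheral nodes. Leaving out 1 pool gave 4 to 23, 0 to 13, 5 to 28, 1 to 13 and 338 to 800. Without library 1 and without library 2, 4 and 70 genes passed for genotype, where genotype and sex cannot be told apart, and 182 and 818 for tissue; effects per tissue and their difference have no value with 1 library.

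Against ceiling-type cells, leaving out a library gave 42 to 56 genes for tissue (128) and 1 to 14 for genotype (4), and no filter 160 and 12. Against Marco-type cells it gave 20 to 68 for tissue (64) and 8 to 16 for genotype (0), and no filter 94 and 8.

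The tissue difference in share (-2.32 points) was -5.30 without library 1 and reversed to 0.659 without library 2, to 1.93 with cells thinned, and to 6.22 as a share of all cells. The genotype difference (5.22 points) was -1.91 without library 2 and 12.3 without library 1. Permuted within libraries, p was 0.611 and 0.333.

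Of 2552 single-gene values over 148 gene and contrast pairs within floor-type cells none reversed; of those with 1 pool or library left out 348 lost the call, and of the others 157. Among the named class differences 2 reversed without library 2, against ceiling-type cells: the tissue difference of Lpar1 (4.18 to -1.43) and the genotype difference of Ccl19 (-6.08 to 0.49). The planned removal of doublets and mixed cells would have left 63 of 1138 members, because Plvap, Rgs5 and Ccl19 were on its lists; it was not run, and a version without them, chosen after seeing the data, kept 977. The smallest sum of 102597 UMIs limits the mesenteric comparisons. The cause of each change was not tested.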

Other observations

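Floor-type cells of mesenteric nodes had more Fgf23 and Tnf beside the interferon-induced genes, and those of peripheral nodes more Ngfr, Kcna6 and Axin2. In Marco-type cells Tnf was at 16, 8.37, 7.37 and 23.4 CPM in the peripheral and 54.5, 0, 40.8 and 134 CPM in the mesenteric pools. The tissue effect on Tnf differed from that of Marco-type cells by -0.18 ± 0.52 (SE, adjusted p = 0.946 in edgeR), which did not pass. The immunoglobulin light chain gene Igkc stood at 21.1, 38.4, 985 and 1.45 CPM in the peripheral and 19.3, 0, 4.15 and 1.59 CPM in the mesenteric floor-type sums, so that 1 of 8 pools held most of it. Ccl21a, a chemokine of other lymphatic cells and of stroma, had 25.4, 16, 233 and 11.6 CPM in the peripheral and 23.1, 0, 29.1 and 3.19 CPM in the mesenteric sums, again highest in the Xbp1-KO peripheral pool of library 1. Near-identical copies of Ccl21a in the mouse genome make its level uncertain. Ccl19, on the stromal list, had 58.9, 60.8, 47.6 and 49.4 CPM in the peripheral pools and 52.6, 58.5, 70.6 and 78.1 CPM in the mesenteric pools in floor-type cells, while of the other stromal genes Rgs5 had 2104 UMIs, Dcn 149, Acta2 11, Col1a2 4, Pdgfra 3 and Pdgfrb and Col1a1 1 each.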
